A study of Mus musculus with 6 samples.

Results

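SR proteins and hnRNPs are the main classes of RNA-binding proteins that steer splice site choice, and their genes were compared in blood stem cells of control mice and of mice labelled Rbfox2-deleted. Members were all genes whose mouse symbol begins with Srsf and a number or with Hnrnp, after counts of rows with the same Ensembl identifier had been summed. Pseudogenes and the SR protein kinases were left out. The rule gave 31 genes of 22969 identifiers in the table, 11 SR protein genes and 20 hnRNP genes. The rule uses symbols only and no measured value.

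The cells were hematopoietic stem cells from adult bone marrow, sorted as lineage-negative, Sca-1 and c-Kit positive cells with CD150 but without CD48. All 6 mice were C57BL/6 and carried floxed Rbfox2 alleles (Rbfox2-fl/fl), and the 3 labelled mutant also carried Vav1-cre, whose promoter is active throughout the blood lineage. The labels give no age beyond adult, no sex and no name for the deleted exon. About 500 cells per library went into Smart-seq2, which amplifies full-length cDNA by PCR and records neither strand nor molecular identifiers.

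SR proteins carry RNA recognition motifs followed by a domain rich in arginine and serine. They bind exonic enhancers and recruit spliceosome components, and their activity depends on phosphorylation of that domain by SRPK and CLK kinases and on import by transportin-SR. The hnRNPs coat nascent transcripts, often act against SR proteins at silencer elements, and also take part in export, stability and translation of mRNA. Many genes of both families contain an ultraconserved poison exon, whose inclusion sends the mRNA to nonsense-mediated decay, so that the protein can limit its own level. Rbfox2 is itself a splicing regulator that binds UGCAUG elements beside alternative exons.

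The libraries held between 23474895 and 55151484 counts, and every library labelled Rbfox2-deleted was shallower than any control. Control libraries 1 and 3 were so close (chi-square per degree of freedom 3.44, against at least 156 for any other pair) that they were summed and counted as 1 sample, which left n = 2 against n = 3. For the members tested, the median absolute log2 ratio between these 2 libraries was 0.06 and the highest was 0.25. Rbfox2, the targeted gene, had 238, 11 and 250 counts in controls 1, 2 and 3 and 2, 87 and 10 counts in libraries labelled deleted 1, 2 and 3. Scaled for depth, control 2 (0.229 CPM) lay below deleted 2 (2.26 CPM) and slightly below deleted 3 (0.257 CPM), which goes against the labels, and every direction below rests on the labels. All 7 listed stem cell genes were detected: Ly6a (Sca-1), Kit, Slamf1 (CD150), Procr, Cd34, Mecom and Hlf. Procr, Cd34, Mecom and Hlf were not part of the stated sort. Summed levels were 1127 and 1279 CPM (counts relative to the total over tested genes, scaled by TMM factors) in the control samples and 866 to 956 CPM in the libraries labelled deleted. The lower sum came from Ly6a, which was below both controls in every deleted library. For the other genes of the list the groups overlapped. On average Procr was slightly lower in the deleted libraries, while Kit, Slamf1, Cd34, Mecom and Hlf were higher. Cd48 was at 0 in 4 of the 5 samples and at 0.0772 CPM in the other. Xist and Y-linked counts placed deleted 1 and 3 as female and the other libraries as male. The labels give separate mice, but p-values here measure only the spread between these 5 samples, and in sorted bulk cells fewer cells of a type and less RNA per cell cannot be told apart.

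No member passed the threshold in the comparison of libraries labelled Rbfox2-deleted with controls. The edgeR quasi-likelihood test called 0 of the 30 members tested at an adjusted p under 0.05, where it called 0% of all 12350 genes. DESeq2 and limma-voom also called 0 members, against 3.64% and 0% of all genes. At an unadjusted p under 0.05, edgeR gave 4 members higher (Srsf6, Hnrnpab, Hnrnpk and Hnrnpf) and 0 lower, beside 5.33% of all genes higher and 4.56% lower. The lowest edgeR adjusted p was 0.418 among SR genes and 0.387 among hnRNP genes. Srsf12, an SR-related splicing repressor, was not tested, since it had 9 counts in each control sample and 0, 1 and 0 counts in deleted 1, 2 and 3.

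Directions within the families were mixed. Of the 10 SR genes tested, 5 had a point estimate above control and 5 below, with a median log2 difference of -0.05 and a range from -1.07 to 1.58. Of the 20 hnRNP genes, 13 lay above control and 7 below, with a median of 0.16 and a range from -1.33 to 1.52, but under upper quartile scaling 7 lay above and the median was -0.14. Over all genes tested 53.5% had a point estimate above control and 46.5% below, with a median of 0.11, and under upper quartile scaling that median was -0.20. The shares of members above control were therefore close to that of all genes.

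In 11 members the samples of the groups did not overlap, beside 32% of all genes tested. Of the SR genes 3 were above control and 1 below, and of the hnRNP genes 6 were above and 1 below, where 14.9% of all genes did not overlap and were higher and 17.2% were lower. With upper quartile scaling, which places the library labelled deleted 1 lower, 0 SR genes were above and 3 below, and 3 hnRNP genes were above and 2 below, against 9.89% and 24.9% of all genes. Hnrnpab, Hnrnpu and Hnrnpm above control and Srsf10 and Hnrnpr below it did not overlap under either scaling. The values per sample that follow are TMM-scaled, and where they are said not to overlap for Srsf3, Srsf5, Srsf6, Hnrnpk, Hnrnpf or Hnrnpa3, they overlapped under upper quartile scaling. Srsf9, Srsf11 and Hnrnph3 overlapped with TMM scaling and lay below both controls in every deleted library under upper quartile scaling.

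The members' differences were small beside those of other genes. The median absolute log2 difference was 0.41 over the 30 members and 0.83 over all genes tested. Members were also more abundant than the typical gene, with a median control level of 70.7 CPM against 12.7 CPM. Among the 8418 genes within the control level range of the members, the median absolute difference was 0.73. Their median control level was 27.5 CPM, so they were not matched to the members in level. These are descriptions of the list, without a test.

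**Figure D1:**
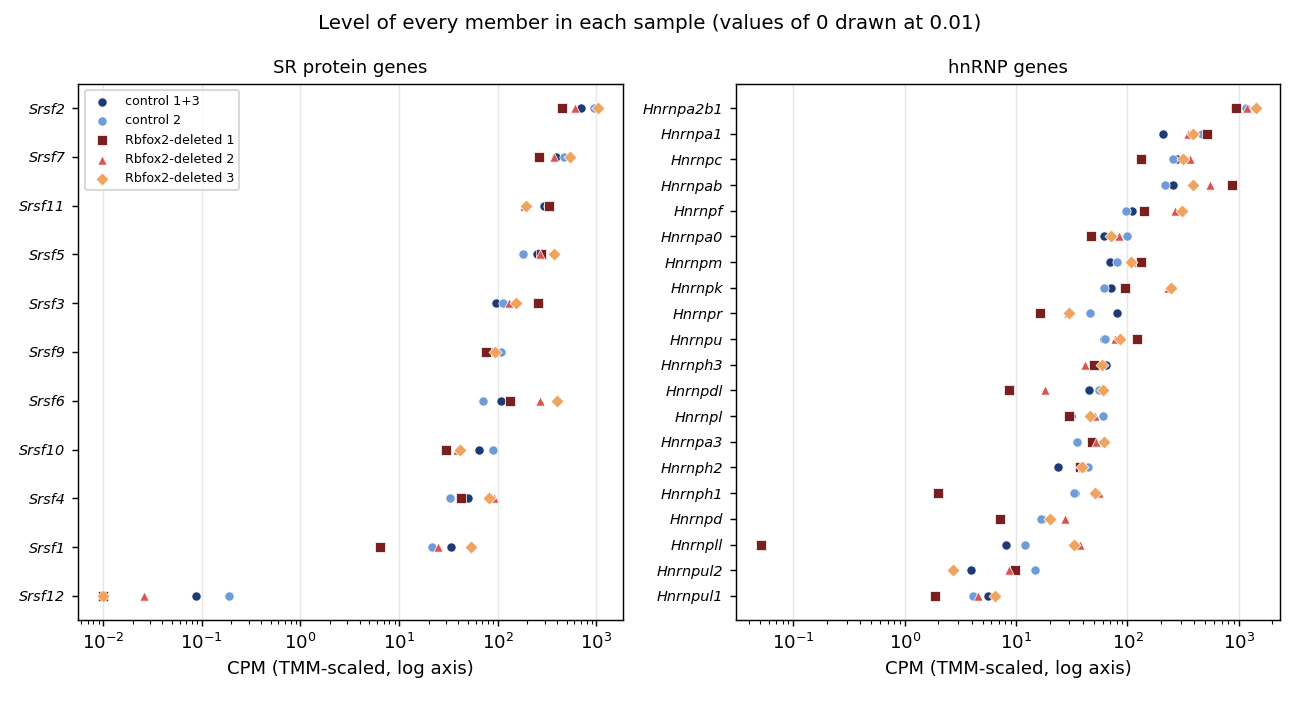
Level of each SR gene (left) and hnRNP gene (right) in the 5 samples, in TMM-scaled CPM on a log axis, with 1 symbol per sample (circles control, other shapes libraries labelled Rbfox2-deleted) and values of 0 drawn at 0.01. Hnrnpll (0.0506 CPM) and Hnrnph1 (1.97 CPM) lie far left in deleted 1, while Hnrnpr and Srsf10 have all 3 symbols of the deleted libraries left of both controls.

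Promoter sequences are shown for the member with the smallest p in each direction in a family, as examples of how differently these genes begin. Srsf10 is left out because its window overlaps an annotated exon of the gene, so 3 windows remain. Each holds the 250 bases before the RefSeq start on mouse build GRCm38.p6. Srsf6 is at chr2:162931258-162931507 on the plus strand, Hnrnpab at chr11:51606882-51607131 on the minus strand, and Hnrnpr at chr4:136310692-136310941 on the plus strand. Capitals mark the CCAAT box (CCAAT, or ATTGG on the other strand), the GC box (GGGCGG, or CCGCCC) and the E-box (CACGTG).
Srsf6: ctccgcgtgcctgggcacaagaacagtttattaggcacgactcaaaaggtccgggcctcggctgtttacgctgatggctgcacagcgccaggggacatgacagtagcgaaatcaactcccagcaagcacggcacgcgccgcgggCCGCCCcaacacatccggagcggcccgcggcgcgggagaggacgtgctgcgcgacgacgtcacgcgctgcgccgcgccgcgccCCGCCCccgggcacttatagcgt
Hnrnpab: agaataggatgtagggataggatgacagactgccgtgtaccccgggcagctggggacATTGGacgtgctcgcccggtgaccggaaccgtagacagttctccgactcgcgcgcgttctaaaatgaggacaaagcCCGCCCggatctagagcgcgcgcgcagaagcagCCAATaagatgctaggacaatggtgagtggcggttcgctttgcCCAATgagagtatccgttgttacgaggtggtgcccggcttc
Hnrnpr: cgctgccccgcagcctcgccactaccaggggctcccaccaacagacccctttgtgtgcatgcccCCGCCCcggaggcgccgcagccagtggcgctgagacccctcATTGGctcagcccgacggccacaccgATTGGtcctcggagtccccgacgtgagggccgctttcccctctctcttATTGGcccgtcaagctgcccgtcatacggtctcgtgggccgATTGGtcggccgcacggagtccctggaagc
The Srsf6 window held 2 GC boxes and 0 CCAAT boxes and had a GC content of 68.4%. Hnrnpab had 3 CCAAT boxes and 1 GC box at 58.4% GC, and Hnrnpr had 4 CCAAT boxes and 1 GC box at 68.8% GC. Hnrnpr has 2 annotated starts, and only the window of the first is printed. The capitals did not overlap one another.

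The same letters were searched in every member with a RefSeq start. Such windows were found for 29 of the 31 members, all but Hnrnpll and Hnrnpul2. A gene counted if any of its windows held the letters, and 6 members had more than 1 start. The shares of all windows are per single window, so they are not the same measure as the shares of genes. A CCAAT box on either strand was present for 3 of 11 SR genes (27.3%) and 13 of 18 hnRNP genes (72.2%). The shares were 40.6% of 9737 tested genes and 33.8% of all 32851 windows of that length. GC boxes were found for 10 of 11 SR genes (90.9%) and 14 of 18 hnRNP genes (77.8%), beside 62.4% of tested genes and 32.7% of all windows. The E-box stood in 0 of 11 SR and 3 of 18 hnRNP genes, and in 9.8% of tested genes and 6.02% of all windows. A TATA box, searched as TATAAA, stood in 2 SR genes and 1 hnRNP gene, against 7.95% of tested genes and 12.4% of all windows. CCAAT and GC boxes are the letters bound by NF-Y and by Sp factors, and a match describes the letters alone.

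Among SR genes the 3 closely related members Srsf4, Srsf5 and Srsf6, which pair 2 RNA recognition motifs with a long arginine and serine domain, all had point estimates above control. Their median log2 difference was 0.79, and it was positive for each of them under all 17 alternative settings. Summed over the 3 genes, the level was 406 and 284 CPM in the control samples and 448, 630 and 855 CPM in deleted 1, 2 and 3. The means were 345 ± 86.4 CPM (SD, n = 2) and 644 ± 204 CPM (SD, n = 3). All 3 sums of the deleted libraries were above both controls, deleted 1 only slightly, and with upper quartile scaling deleted 1 (342 CPM) lay between the controls (459 and 334 CPM).

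Srsf6, which regulates exons of tau and other transcripts and is studied in skin wound repair, had the smallest p of the SR genes. The gene lies at chr2:162931528-162937121 (mm10, plus strand). It was at 108 CPM in the summed controls 1 and 3 and 70.8 CPM in control 2, and at 132, 270 and 399 CPM in deleted 1, 2 and 3. All 3 libraries labelled deleted were above both controls, deleted 1 only slightly. The log2 difference was 1.58 (SE 0.53, edgeR adjusted p = 0.418).

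Srsf5, an SR protein first described as an insulin- and growth-induced transcript, differed less. Levels were 248 and 180 CPM in the controls and 274, 269 and 375 CPM in deleted 1, 2 and 3. The groups did not overlap, with a log2 difference of 0.52 (SE 0.30, edgeR adjusted p = 0.692). Srsf4, the largest classical SR protein, was at 49.9 and 33 CPM in the controls and 42, 90.8 and 81.6 CPM in the deleted libraries. Here deleted 1 lay between the controls while deleted 2 and 3 were above them (log2 difference 0.79, SE 0.55, edgeR adjusted p = 0.770).

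Srsf3 and Srsf10 each carry a single RNA recognition motif and lay on opposite sides of control. Srsf3, a short SR protein that also serves in mRNA export and in polyadenylation site choice, was at 96.2 and 113 CPM in the controls and 255, 129 and 153 CPM in deleted 1, 2 and 3. Deleted 1 was highest, and no sample of the deleted group lay among the controls (log2 difference 0.78, SE 0.40, edgeR adjusted p = 0.622). With a GC content trend removed the Srsf3 difference was 1.44, where the median of all genes was 0.47. It was 0.30 with sex as a covariate, 0.39 with upper quartile scaling and 0.42 without deleted 1. The medians of all genes there were -0.10, -0.20 and 0.02. Srsf10 works as a splicing repressor when dephosphorylated, as in heat shock or mitosis. It was at 64.4 and 89.7 CPM in the controls and 30, 38.6 and 41.7 CPM in deleted 1, 2 and 3. All 3 deleted libraries were below both controls, by a log2 difference of -1.07 (SE 0.48, edgeR adjusted p = 0.549). Srsf10 lies at chr4:135855747-135869908 on the plus strand (mm10).

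Srsf2, whose mutation is recurrent in human myelodysplastic syndromes, had the highest level per transcript length of the SR genes, with a mean of 577 TPM (a level per transcript length, computed from the counts and each gene's longest coding transcript). The TPM values were 493 and 605 in the controls and 302, 510 and 976 in deleted 1, 2 and 3. Deleted 1 was lowest and deleted 3 highest of all 5 samples, so the groups overlapped across their whole range. On the CPM scale it was at 819 ± 176 in control (SD, n = 2) and 699 ± 310 in libraries labelled deleted (SD, n = 3), a log2 difference of -0.23 (SE 0.40, edgeR adjusted p = 0.949). Its share of the summed SR level was 33.5% and 40.1% in the controls and 24.2%, 29% and 35% in deleted 1, 2 and 3. By mean TPM, Srsf2 was followed by Srsf5 (255), Srsf7 (250), Srsf11 (120) and Srsf9 (114).

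The other SR genes tested overlapped between groups with TMM scaling. Srsf11, an SR-related protein linked to neuronal microexons, had the larger difference, with a log2 value of -0.40 (SE 0.34). It was at 297 and 326 CPM in the controls, 331 CPM in deleted 1, and 184 and 195 CPM in deleted 2 and 3, so that deleted 1 stood with the controls, whereas with upper quartile scaling deleted 1 (253 CPM) also lay below both controls (336 and 383 CPM). Srsf1, the founding SR protein ASF/SF2, had a log2 difference of 0.03 (SE 0.98), with 6.42, 24.6 and 53.6 CPM in the deleted libraries around controls of 33.4 and 21.7 CPM. Srsf7 and Srsf9 had log2 differences of -0.13 and -0.14.

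Among hnRNP genes, Hnrnpab, Hnrnpk and Hnrnpf were above control in all 3 libraries labelled deleted, for Hnrnpk and Hnrnpf with TMM but not with upper quartile scaling. Hnrnpab encodes a relative of the A and D proteins that binds AU-rich and promoter elements. It was at 258 and 217 CPM in the controls and 866, 551 and 389 CPM in deleted 1, 2 and 3, highest in deleted 1. The means were 237 ± 29.2 CPM (SD, n = 2) and 602 ± 243 CPM (SD, n = 3), and the log2 difference was 1.34 (SE 0.39, edgeR adjusted p = 0.387). The gene lies at chr11:51600100-51606847 (mm10, minus strand).

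Hnrnpk binds C-rich RNA through KH domains and is a haploinsufficient tumour suppressor in myeloid cells. It was at 70.9 and 61.6 CPM in the controls and 95.2, 229 and 246 CPM in deleted 1, 2 and 3. Deleted 1 was nearest to control and the other deleted libraries were well above it (log2 difference 1.52, SE 0.49, edgeR adjusted p = 0.414). Hnrnpf, which binds G-rich runs through quasi-RNA recognition motifs, was at 110 and 97.9 CPM in the controls and 141, 267 and 312 CPM in deleted 1, 2 and 3. It showed the same order of samples, with a log2 difference of 1.20 (SE 0.41, edgeR adjusted p = 0.434). Its F/H relatives had log2 differences of 0.18 (SE 0.60) for Hnrnph2, -0.24 (SE 0.47) for Hnrnph3 and 0.13 (SE 1.22) for Hnrnph1, the last from libraries on opposite sides of control.

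Hnrnpr, a relative of Syncrip that acts in mRNA transport and transcription, was the hnRNP gene with the largest difference below control. It was at 80.7 and 45.9 CPM in the controls and 16.5, 29.3 and 29.8 CPM in deleted 1, 2 and 3. All 3 deleted libraries were below both controls, although the controls differed from each other more than deleted 2 differed from control 2 (log2 difference -1.33, SE 0.60, edgeR adjusted p = 0.552). Its annotated coding transcript is unusually long, so its level per length is uncertain.

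Hnrnpm, Hnrnpu and Hnrnpa3 were moderately above control in every deleted library, with close controls. Hnrnpm, a regulator of splicing in epithelial-mesenchymal transition, was at 70.3 and 79.9 CPM in the controls and 133, 109 and 107 CPM in deleted 1, 2 and 3 (log2 difference 0.63, SE 0.35, edgeR adjusted p = 0.665). Hnrnpu, which also ties chromatin to nuclear RNA and helps keep Xist on the inactive X chromosome, was at 61.8 and 62.7 CPM against 121, 77.9 and 85.5 CPM (0.61, SE 0.40, edgeR adjusted p = 0.749). Hnrnpa3, a protein of the A/B group, was at 34.9 and 35.5 CPM against 48.5, 51.7 and 61.3 CPM (0.61, SE 0.50, edgeR adjusted p = 0.823). For each of the 3 genes the groups did not overlap, and the difference was under 2 SE. With a trend on transcript length removed, Hnrnpm, Hnrnpu and Hnrnpa3 were at 1.32, 1.52 and 1.38 on the log2 scale, where the median of all genes was 0.43. With upper quartile scaling they were at 0.28, 0.24 and 0.29, where that median was -0.20. Hnrnpu was at 1.20 with a GC content trend removed and at 0.32 with sex as a covariate. The medians of all genes there were 0.47 and -0.10.

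Hnrnpdl and Hnrnpa2b1 overlapped between groups. Hnrnpdl, known to limit its own mRNA through decay-bound splice forms, was at 44.7 and 55.4 CPM in the controls and 8.55, 18.3 and 60.7 CPM in deleted 1, 2 and 3. Deleted 1 and 2 lay below the controls and deleted 3 above them (log2 difference -0.78, SE 0.90, edgeR adjusted p = 0.903). The difference was -1.91 without deleted 3 and -1.45 with sex as a covariate, where the medians of all genes were 0.01 and -0.10. Hnrnpa2b1, a core protein of hnRNP particles that also binds miRNA motifs for exosome sorting, had the highest hnRNP level per length, with 720 and 816 TPM in the controls and 698, 1114 and 1456 TPM in deleted 1, 2 and 3. On the CPM scale its log2 difference was 0.19 (SE 0.27, edgeR adjusted p = 0.926). Under upper quartile scaling the difference was -0.12, where the median of all genes was -0.20. Hnrnpa2b1 made up 38.6% and 40.3% of the summed hnRNP level in the controls and 29.5% to 37.9% in the deleted libraries. Hnrnpa1 and Hnrnpab followed with means of 288 and 278 TPM.

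Among the other hnRNP genes, Hnrnpll and Hnrnph1 had far lower levels in deleted 1 than in any other sample. Hnrnpll, the regulator of Cd45 exon choice in lymphocytes, had 1 count in deleted 1 and 1436 and 1297 counts in deleted 2 and 3. On the CPM scale it was at 8.13 and 12.1 in the controls and 0.0506, 37.3 and 33.4 in the deleted libraries, so that 2 of them were above and 1 below control (log2 difference 1.22, SE 1.91). Hnrnph1 had 39 counts in deleted 1, or 1.97 CPM, against 55.8 and 51.6 CPM in deleted 2 and 3 and 33.8 and 32.8 CPM in the controls. Differences below -3 from the control mean on the log2 scale were found in deleted 1 for these 2 of 30 members (6.67%) and for 16.5% of all genes tested.

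The other hnRNP genes had log2 differences between -0.41 (Hnrnpul2) and 0.32 (Hnrnpa1). Hnrnpc, which packages nascent RNA and binds uridine tracts, was at 278 and 256 CPM in the controls and 132, 366 and 316 CPM in deleted 1, 2 and 3, on either side of control. Hnrnpa1, the best studied splicing silencer, was at 209 and 465 CPM in the controls and 518, 352 and 388 CPM in the deleted libraries, so the controls differed by more than the groups did. Hnrnpd, Hnrnpl, Hnrnpul1 and Hnrnpa0 had log2 differences of 0.10, -0.12, -0.19 and -0.26.

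**Figure D2:**
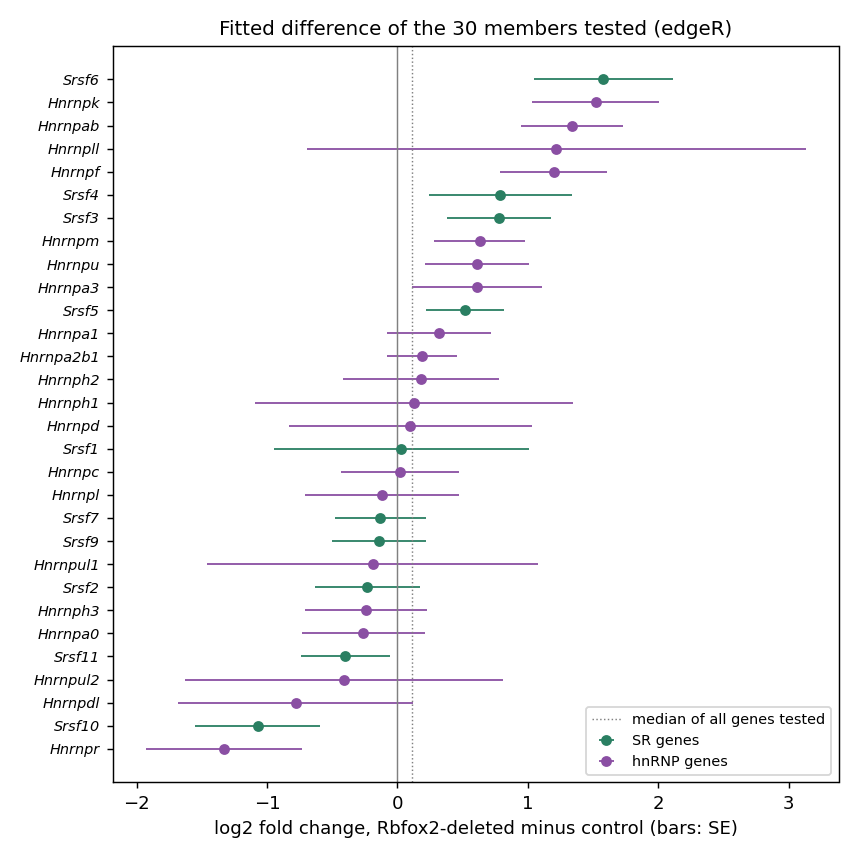
Fitted log2 difference of each of the 30 members tested, libraries labelled Rbfox2-deleted minus control, with bars of 1 SE (edgeR), green for SR and purple for hnRNP genes. The dotted line is the median of all genes tested (0.11), and the estimates run from Hnrnpr (-1.33) to Srsf6 (1.58).

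Sums over the families were compared within samples. Summed hnRNP levels were 2392 and 2873 CPM in the controls and 3211, 3597 and 3745 CPM in deleted 1, 2 and 3, a ratio of means of 1.34, but with upper quartile scaling deleted 1 (2452 CPM) lay below both controls (2706 and 3381 CPM). Summed SR levels were 2073 and 2355 CPM in the controls and 1858, 2075 and 2986 CPM in the deleted libraries, a ratio of 1.04, and overlapped. The A/B and D genes made up most of the hnRNP sum. They were at 1549 and 2046 CPM in the controls and 2281 to 2442 CPM in the deleted libraries. With upper quartile scaling deleted 1 and 2 (1865 and 2226 CPM) lay between the controls (1753 and 2407 CPM). Both sums include Hnrnpab, at 258 and 217 CPM in the controls and 866, 551 and 389 CPM in deleted 1, 2 and 3. Without Hnrnpab deleted 1 would lie between the controls in both sums with TMM scaling. Deleted 2 and 3 would stay above both controls in the hnRNP sum.

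The ratio of the hnRNP sum to the SR sum within a sample does not depend on the scaling. It was 1.15 and 1.22 in the controls and 1.73, 1.73 and 1.25 in deleted 1, 2 and 3, with means of 1.19 ± 0.047 (SD, n = 2) and 1.57 ± 0.275 (SD, n = 3). Deleted 3 was close to control 2, and the other deleted libraries were well above. Without Hnrnpab in the hnRNP sum, deleted 3 would be level with control 2, and deleted 1 and 2 would stay above both controls. No p is given for a score over the members.

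**Figure D3:**
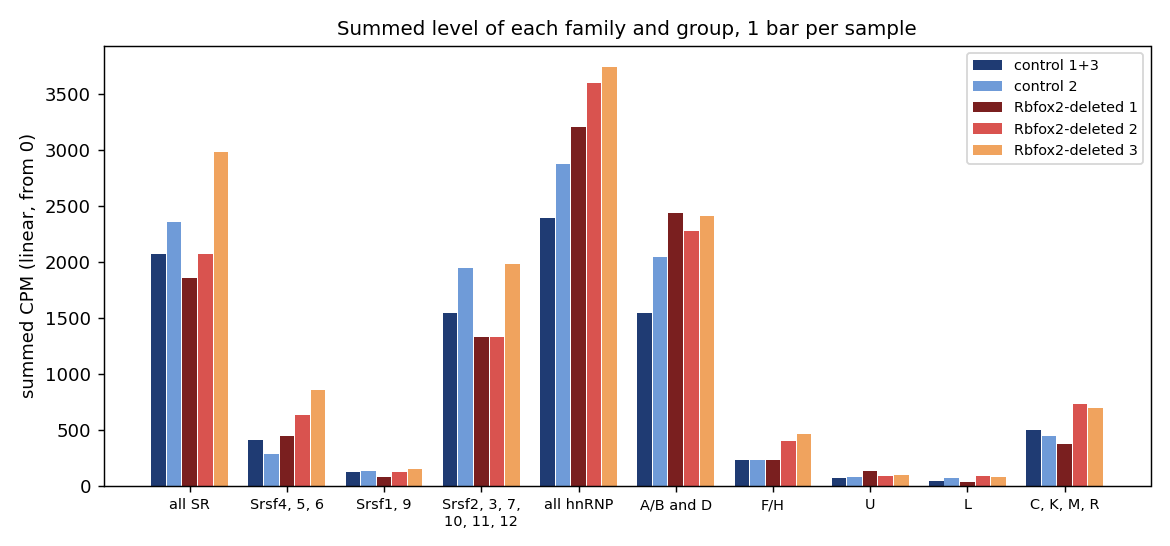
Summed CPM of each family and of groups within it (linear axis from 0), with 1 bar per sample, blue for controls and red to orange for libraries labelled Rbfox2-deleted. The hnRNP bars of the deleted libraries (3211 to 3745 CPM) stand above both controls with TMM scaling but not with upper quartile scaling, and the SR bars overlap.

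The 3 libraries labelled deleted did not share one pattern. Relative to the mean of the controls on the log2(CPM + 0.5) scale, the median SR difference was -0.15, -0.08 and 0.46 in deleted 1, 2 and 3, and the median hnRNP difference was -0.18, 0.29 and 0.34. Over all genes tested these medians were -0.45, -0.02 and 0.05. The median absolute difference in deleted 1 was 0.73 over the members and 1.47 over all genes, against 0.48 and 0.80 in deleted 2 and 0.53 and 0.80 in deleted 3. Over the SR genes alone it was higher in deleted 3 (0.75) than in deleted 1 (0.65). Between the controls it was 0.32 over the members and 0.49 over all genes. Deleted 1 was also the shallowest library, with 14154 genes detected, and 4 of 6 megakaryocyte markers were at 0 in it. The part of depth or of these cells in the members' values was not tested.

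**Figure D4:**
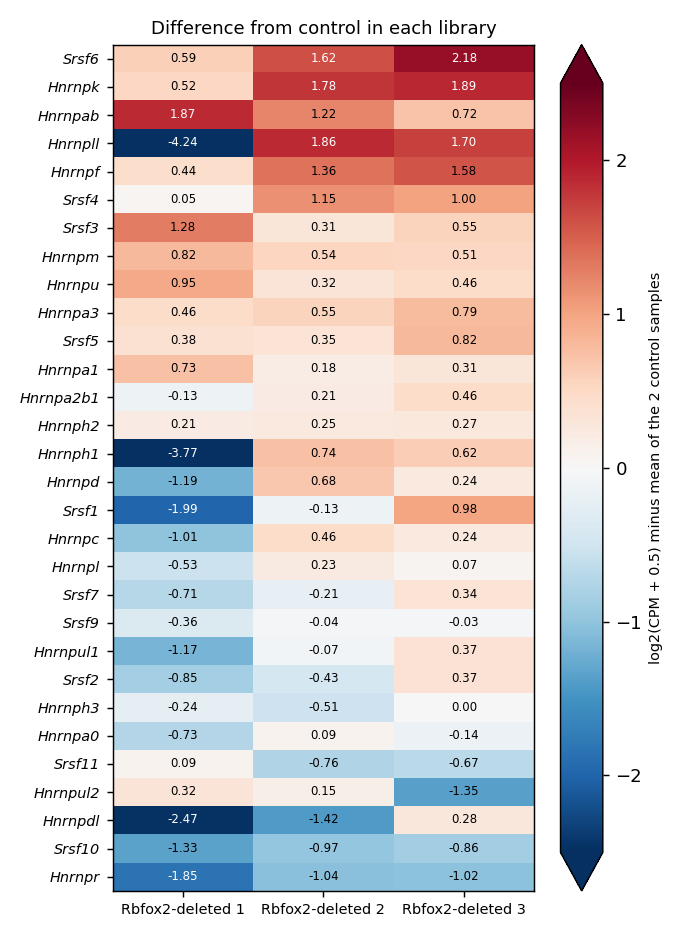
Difference of each member in each library labelled Rbfox2-deleted from the mean of the 2 control samples, on the log2(CPM + 0.5) scale, with red above and blue below control and the colour scale ending at 2.5 in either direction. Srsf6 runs from 0.59 to 2.18, while Hnrnpll is at -4.24 in deleted 1 and at 1.86 and 1.70 in deleted 2 and 3.

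Without deleted 1, more members reached an unadjusted p under 0.05, as did more of all genes. These were 9 of 30 members, 6 higher and 3 lower, beside 23.7% of all 12346 genes tested, and 0% of genes passed the adjusted threshold. The lowest adjusted p by edgeR was 0.0635, for Hnrnpk (log2 difference 1.83, SE 0.22), Hnrnpf (1.46, SE 0.21) and Srsf6 (1.89, SE 0.30). The other members higher were Hnrnpab, Hnrnpll and Srsf4, at 0.97, 1.79 and 1.04 on the log2 scale (edgeR adjusted p = 0.0861, 0.0894 and 0.116). The 3 lower were Srsf11, Srsf10 and Hnrnpr, at -0.73, -0.96 and -1.11 (edgeR adjusted p = 0.0938, 0.132 and 0.141).

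Genes that act on or beside the families were also compared. They were 12 kinases, import factors and a phosphatase that act on SR proteins or hnRNPs, 10 hnRNPs under other symbols and both Tra2 proteins. Of the 24 genes 23 were tested and 0 passed in edgeR, DESeq2 or limma-voom, beside 0%, 3.64% and 0% of all genes. With an unadjusted p under 0.05 there were 0 higher and 2 lower, beside 5.33% and 4.56% of all genes. Point estimates lay above control for 11 and below for 12, with a median of -0.08, where 53.5% of all genes lay above, with a median of 0.11.

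The kinases Prpf4b and Srpk1 had the smallest p values of these genes. Prpf4b, a spliceosome-associated kinase, was at 142 and 169 CPM in the controls and 75.3, 43.5 and 39.2 CPM in deleted 1, 2 and 3, below both controls in each (log2 difference -1.56, SE 0.43, edgeR adjusted p = 0.387). Srpk1, which phosphorylates SR proteins in the cytoplasm before import, was at 155 and 114 CPM in the controls and 65.5, 55.3 and 38.5 CPM in the deleted libraries (-1.34, SE 0.41, edgeR adjusted p = 0.39). Clk4, a nuclear kinase that releases SR proteins from speckles, was at 27.9 and 39 CPM against 108, 48.1 and 69.5 CPM, above both controls in each (1.17, SE 0.56, edgeR adjusted p = 0.591). With a trend on transcript length removed, Prpf4b was at -0.60 and Srpk1 at -0.43 on the log2 scale. The median of all genes there was 0.43. With a GC content trend removed Prpf4b was at -0.91, where that median was 0.47. Clk4 was at 0.52 with sex as a covariate and at 1.83 with the GC trend removed, where the medians were -0.10 and 0.47. Srpk2 and Clk1, relatives of these kinases, had log2 differences of -0.14 (SE 0.48) and 0.23 (SE 0.70). Ptbp1 and Rbmx had groups that did not overlap, higher by 0.82 and 0.70, and Cirbp lay lower at -0.64.

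The annotation marks these families by transcripts that end in decay. In GENCODE vM21, 9 of 11 SR genes (81.8%) and 10 of 20 hnRNP genes (50%) have a transcript of the nonsense-mediated decay type, beside 29.3% of the 11841 protein-coding genes tested. Transcripts with a retained intron are annotated for 72.7% of SR genes, 70% of hnRNP genes and 59.4% of protein-coding genes tested. The median number of annotated transcripts was 7, 8 and 5 per gene. Counts per gene sum all of these forms, so productive and decay-bound transcripts could not be told apart. Exons of 14 members overlap another annotated gene, in 11 cases on the opposite strand, such as Mfsd11 at Srsf2 and Phykpl at Hnrnpab, and the reads there cannot be assigned by strand.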

How the data were processed

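The authors deposited raw counts per gene for 6 libraries. Trimmomatic 0.39, featureCounts, DESeq2 1.36.0 and build mm10 are named in the submitters' processing notes. No source used here gives the aligner, the annotation or the treatment of reads with several matches, so counts of genes with processed pseudogenes (Hnrnpa1 and Hnrnpa3 among them) are uncertain.

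From the counts, 12350 genes passing filterByExpr (minimum count 10, minimum total 15) were fitted in edgeR 4.0.16 (R 4.3.3) with TMM scaling and quasi-likelihood tests, two-sided, 2 control samples against 3, with Benjamini-Hochberg adjustment over all genes and a threshold of 0.05. DESeq2 1.42.0, limma-voom (limma 3.58.1), other scalings, filters, covariates and samples left out were alternatives. The same fits were tested on simulated data. CPM computed here are relative to the total over tested genes and scaled by TMM factors, and n is 2 and 3.

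The rule for the members uses symbols alone, but these families and the other lists were picked for study with earlier results of these data known. Values in every sample are given for the 5 SR and 8 hnRNP genes with the smallest p, the member of each family with the highest level per length, and 3 related genes. Other members named with values were chosen after their values were seen. Sequences came from RefSeq (GRCm38.p6) and gene coordinates from GENCODE vM21. 1 pseudogene of the Hnrnpa1 family in the table was left out.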

Additional observations from a re-analysis of the deposited data

How the results depend on the processing

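No member passed the adjusted threshold under any of 17 alternatives (lowest adjusted p 0.0635), and 16 of 18 named genes kept their direction in all of them. The number of all genes called was 0 in edgeR and limma-voom. Of the 12350 genes edgeR tested, 449 were called in DESeq2 fitted on all genes with a count. With DESeq2 fitted on those 12350 genes alone it was 181, a setting chosen after seeing the data. Srsf2 turned to 0.03 without control 2 (-0.65 to 0.03 with 1 sample left out) and to 0.01 with the GC content trend removed. Hnrnpa2b1 turned to -0.12 with upper quartile scaling, and Rbfox2 to 1.90 without controls 1 and 3. The median of all genes was 0.47 with the GC trend removed and -0.20 with upper quartile scaling.

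The medians are given with that of all genes in parentheses. The SR median was 0.43 with the transcript length trend removed (0.43), and it lay between -0.25 and 0.24 with 1 sample left out. The hnRNP median was -0.14 with upper quartile scaling (-0.20), 0.46 with the length trend removed (0.43) and 0.47 with the GC trend removed (0.47), and with 1 sample left out it lay between 0.01 and 0.54, the highest without control 2 (0.16). In limma-voom the SR and hnRNP medians were -0.09 and 0.13 (-0.32). For the related genes the median was -0.35 with upper quartile scaling (-0.20), -0.22 without a filter (-0.04), -0.14 with a stricter filter (0.11), 0.02 with 6 separate libraries (0.11), 0.07 with sex as a covariate (-0.10), 0.23 and 0.49 with the length and GC trends removed (0.43 and 0.47), and -0.07 to 0.08 with 1 sample left out, with -0.01 without controls 1 and 3 (0.28). The ratio of the hnRNP to the SR sum, relative to control, was 1.32, and 1.26 to 1.46 with 1 sample left out.

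Same-numbered libraries did not deviate together (r from -0.0456 to 0.0558). Controls 1 and 3 were nearly the same, so this check cannot tell whether the numbers pair the mice. With a replicate block over 6 libraries, 0 members passed, and the medians were -0.11 for SR, 0.18 for hnRNP and -0.02 for related genes, where that of all genes was -0.27. The block lowered the number of all genes with an unadjusted p under 0.05 from 2145 to 1348. Depth was lower in all libraries labelled deleted than in the controls. The biological coefficient of variation fitted in common over all genes tested was 104%. For the members the SE ran from 0.27 (Hnrnpa2b1) to 1.91 (Hnrnpll), which limits the size of difference that could pass.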

Other observations

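Some members differed as much between the control samples as between the groups. Hnrnpul2 was at 3.93 CPM in the summed controls 1 and 3 and at 14.8 CPM in control 2, and the libraries labelled deleted lay at 9.76, 8.64 and 2.73 CPM. The processed pseudogene Hnrnpa1l2-ps2, which was not a member, had 117 and 59 counts in the control samples and 49, 108 and 143 counts in deleted 1, 2 and 3, or 1.13 and 1.23 CPM against 2.48, 2.80 and 3.68 CPM.

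Markers of other blood cells varied between the libraries beside these genes. Summed erythroid markers were at 101 and 160 CPM in the controls and 391, 101 and 177 CPM in deleted 1, 2 and 3, with Car1 at 0 in all. Summed megakaryocyte markers were at 291 and 325 CPM in the controls and 52.2, 151 and 228 CPM in the deleted libraries. Granulocyte and monocyte markers, mostly Lyz2, were at 2088 and 1581 CPM against 1567, 1399 and 1191 CPM. B cell markers, mostly Cd79b, were at 322 and 230 CPM against 212, 129 and 168 CPM. T and NK cell markers were at 87.2 and 118 CPM against 199, 104 and 108 CPM. The part of these cells in the members' values was not tested.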
